A study of Mus musculus with 6 samples.

Results

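The cell cycle list held 43 genes that act in DNA replication, mitosis, cyclin-dependent kinase (CDK) control and CDK inhibition. They were listed by function, with earlier results of these data known. All 43 were found by symbol in the count table of 23337 genes, and all 43 passed the filter on low counts and were tested. RNA-seq was performed on cardiomyocytes (CMs) of wildtype mice that received AAV9 at postnatal day 1 (P1) and were collected at P14. The SRF-OE group received AAV9-cTNT-SRF-2A-GFP, which carries serum response factor (SRF) linked to GFP behind the cardiac troponin T (cTNT) promoter. The GFP group, the control, received AAV9-cTNT-GFP, so both groups carried the vector, the promoter and GFP. At 5e8 vg per g body weight, only some CMs of each heart were transduced, and these were sorted by their GFP, so the libraries report on transduced cells and not on the whole heart.

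Proliferating cells pass through G1, S, G2 and mitosis. D cyclins with Cdk4 and Cdk6 open the way out of G1 by phosphorylating the pocket protein Rb1, which releases E2F factors, and CDK inhibitors oppose this. The MCM subunits form the helicase that unwinds DNA in S phase, and the Aurora and Polo kinases, B cyclins and spindle proteins drive mitosis. Mouse CMs largely leave the cell cycle soon after birth, and D cyclins and CDK inhibitors are transcribed in many cells that do not divide.

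The labels named 3 libraries per group, described as biological replicates, and 5 libraries were analysed, 2 of SRF-OE (SRF-OE 2 and SRF-OE 3) and 3 labelled GFP. The column headed for SRF-OE replicate 1 holds gene lengths, so no counts stood under that header. The column of gene symbols is headed Chr, so that header does not match its contents either. Libraries are named here by their column headers, and whether the other headers are shifted as well was not tested. Total counts ranged from 14137433 to 23159631 per library. Srf itself, the check of the labels, was at 360 and 748 counts per 1000000 (CPM) in the SRF-OE libraries, 67.3 and 85.1 CPM in GFP 2 and 3, and 338 CPM in the library labelled GFP1, which therefore went against its label. Fold changes and counts of called members are given with all 5 libraries as labelled and again without the library labelled GFP1, in the 4-library fit. Xist was at 147 CPM in SRF-OE 2 and 88.8 CPM in GFP 2 and at 0.743 CPM or less in the other 3 libraries, so sex did not follow the groups. The summed level of 10 CM markers was between 86888 and 100881 CPM in the SRF-OE libraries and the library labelled GFP1, and at 129447 and 147746 CPM in GFP 2 and 3, and every marker of the list was detected.

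Per kilobase, the cell cycle members ranged from a mean of 1.00 RPKM, the CPM divided by gene length in kilobases, for Cenpe to 67.7 RPKM for Ccnd2. The 4 members at the top, Ccnd2, Cdkn1a, Cdk4 and Ccnd3, had means of 41.7 RPKM or more, and the next, Rrm2, had 18.5 RPKM. Those 4 act in G1. The mitotic members were all at or below the 10.1 RPKM of Cdc20. The fewest counts of any member in any library were 28, for Aurkb, so every member had over 10 counts in every library. In bulk libraries, fewer cells of a type and less RNA per cell cannot be told apart.

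**Figure D1:**
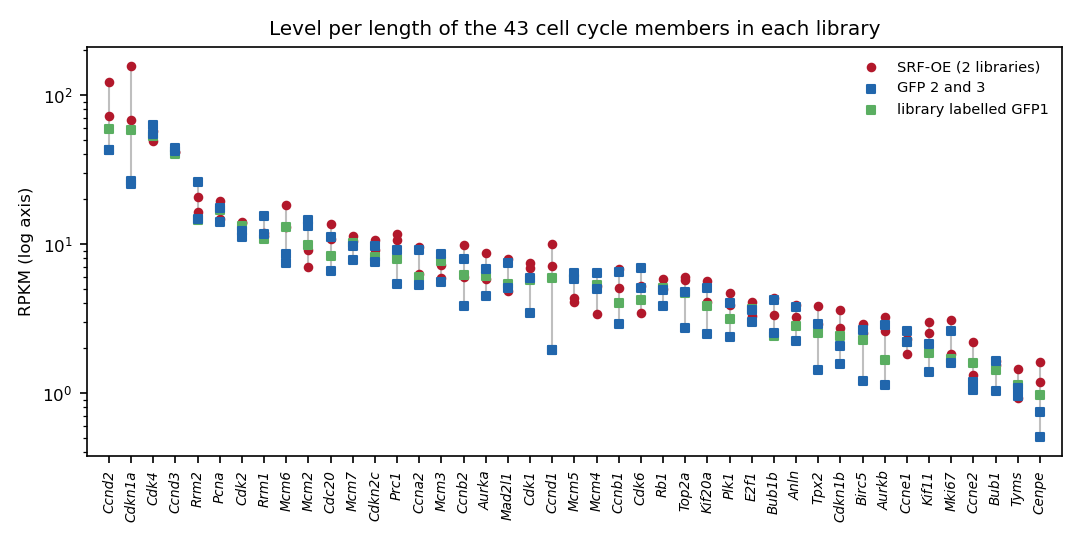
Level of each of the 43 cell cycle members in RPKM (log axis), with 1 point per library and a grey line from the lowest to the highest library. Red circles are SRF-OE, blue squares GFP 2 and 3 and green squares the library labelled GFP1; Ccnd2, Cdkn1a, Cdk4 and Ccnd3 stand at the top, and Cdkn1a and Ccnd1 have long lines with both red points at the upper end.

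Across the list, no member passed an adjusted p of 0.05 in the 5-library fit (edgeR's quasi-likelihood test, Benjamini-Hochberg adjustment over 13754 genes), where the percentage of all tested genes that passed was 0 in each direction. At an unadjusted p under 0.05, 7 members were higher in SRF-OE and 2 were lower, beside 6.35% and 7.59% of all tested genes, and DESeq2 on the same libraries called 1 member, Ccnd2, the 1 member for which it gave an adjusted p. The log2 fold change was above 0 for 34 of 43 members, with a median of 0.32, against a median of 0.03 over all tested genes, and for 33 of 43 in the 4-library fit, with a median of 0.29 against 0.04. Without the library labelled GFP1, 2 members rose, Ccnd1 and Cdkn1a, and none fell, beside 1.98% of 13397 tested genes called higher and 0.97% called lower. Neither was called when GFP 2 or GFP 3 was left out as well. In that 4-library fit, 6 members were higher and 2 lower at an unadjusted p under 0.05, beside 14.4% and 14% of all tested genes, so the count of higher members was near the background. With the replicate number as a block on the 5 libraries, 5 members were higher and 1 was lower, beside 4.23% and 3.14% of all tested genes. The library labelled GFP1 is alone in its number, so the block gives it no weight in this comparison. Both SRF-OE libraries lay above all 3 GFP libraries for 12 of 43 members and below them for 2, beside 16.1% and 17.3% of all tested genes. Against GFP 2 and 3 alone these counts were 14 and 3 members, beside 4123 and 4049 of 13397 genes. With 2 libraries against 3, the smallest p that an exact permutation test allows is 0.1.

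**Figure D2:**
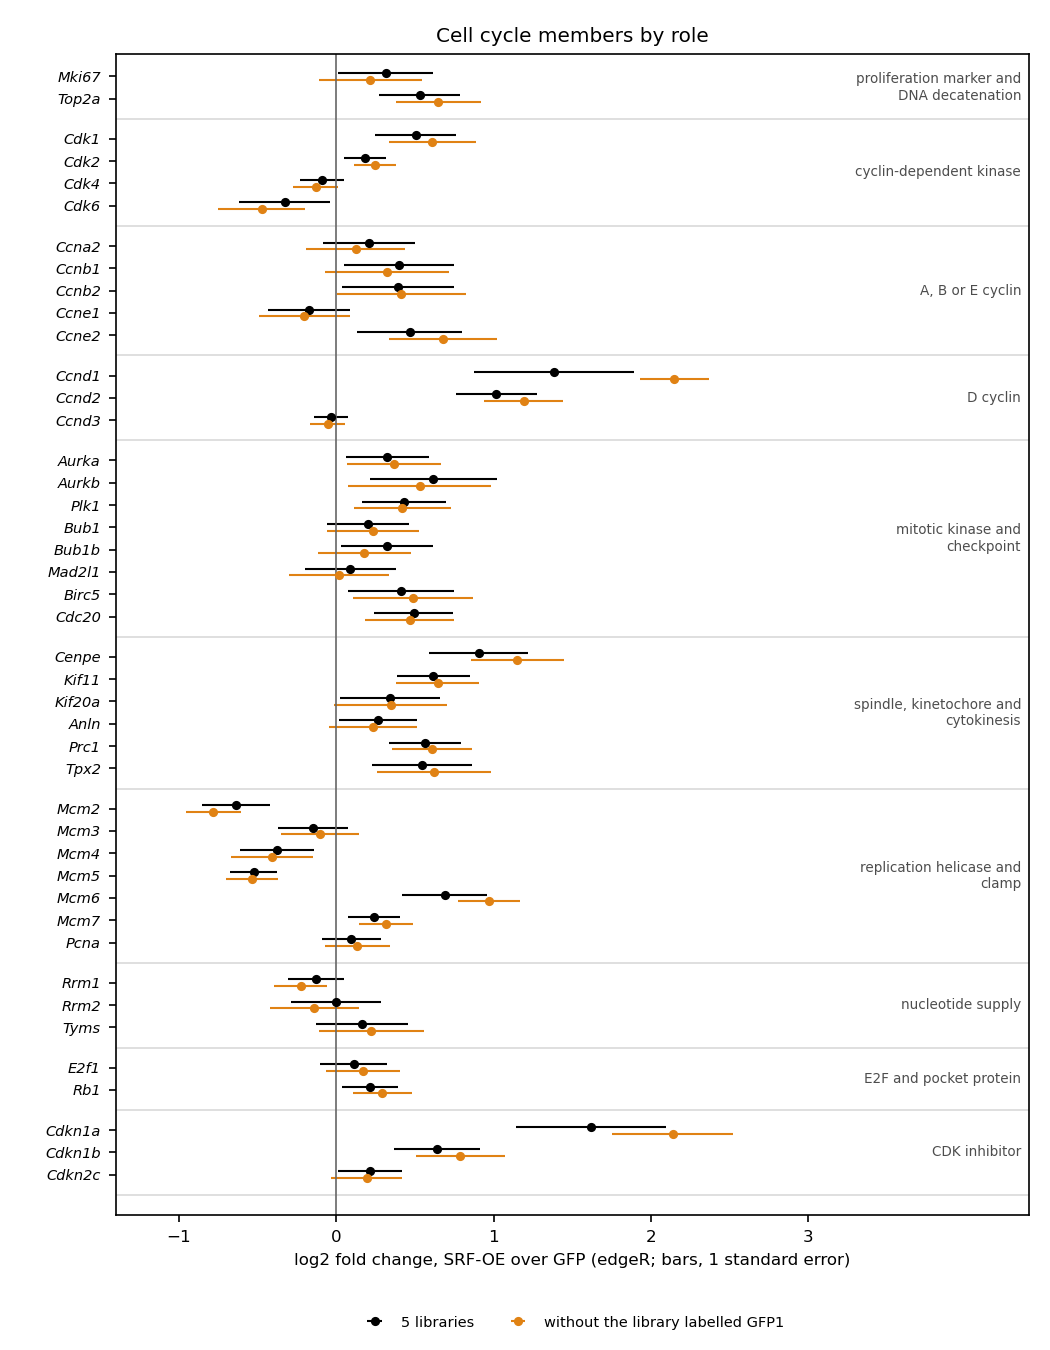
Log2 fold change of SRF-OE over GFP for each of the 43 members, grouped by role, with bars of 1 standard error from edgeR; black points use 5 libraries and orange points leave out the library labelled GFP1. Ccnd1, Ccnd2 and Cdkn1a lie farthest to the right, Mcm2 and Mcm5 farthest to the left, and the 3 D cyclins and the 6 MCM subunits do not share 1 direction.

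Of the D cyclins, which activate Cdk4 and Cdk6 in G1, Ccnd1 and Ccnd2 had the largest log2 fold changes of the members after Cdkn1a in the 5-library fit, and Ccnd3 was near 0. Ccnd1 (cyclin D1, GRCm38 chr7:144929931-144939925, minus strand) was at 27.0 and 38.0 CPM in SRF-OE, 22.5 CPM in the library labelled GFP1, and 7.39 and 7.34 CPM in GFP 2 and 3. Both SRF-OE libraries were above every GFP library, with the library labelled GFP1 next to them. Its log2 fold change was 1.38 ± 0.51 (SE, adjusted p = 0.356) over 5 libraries and 2.15 ± 0.22 (adjusted p = 0.0423) over 4, by edgeR's quasi-likelihood test with Benjamini-Hochberg adjustment. Ccnd1 was called in all 5 alternatives tried on those 4 libraries without a block, with adjusted p up to 0.0460. It shares 818 exonic bases, 21.9% of its exons, with the opposite-strand gene LTO1, which the table lists as Oraov1. The libraries do not mark strand, so strand could not separate reads of these genes in the shared bases. How counting treated such reads is not given in the sources used here. Oraov1 had a log2 fold change of 0.03 ± 0.22 over 5 libraries and 0.12 ± 0.24 over 4.

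Ccnd2 (cyclin D2, GRCm38 chr6:127125162-127152193, minus strand), the member with the highest mean level per length, was at 419 and 703 CPM in SRF-OE, 339 CPM in the library labelled GFP1, and 246 and 247 CPM in GFP 2 and 3. The groups did not overlap, and the gap between the SRF-OE libraries was larger than that between the lower of them and the library labelled GFP1. Its log2 fold change was 1.02 ± 0.26 over 5 libraries (adjusted p = 0.353) and 1.19 ± 0.25 over 4 (adjusted p = 0.0592, edgeR's quasi-likelihood test with Benjamini-Hochberg adjustment), which missed the threshold. DESeq2 called it with either set of libraries, with an adjusted p of 0.0152 over 5 and 6.35e-05 over 4. Without SRF-OE 3, the log2 fold change of Ccnd2 was 0.59 with the 3 GFP libraries and 0.76 with GFP 2 and 3.

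Ccnd3 (cyclin D3) was at 93.1 and 93.0 CPM in SRF-OE, 91.2 CPM in the library labelled GFP1, and 99.0 and 94.9 CPM in GFP 2 and 3. The SRF-OE libraries lay inside the range of the GFP libraries. Its log2 fold change was -0.03 ± 0.11 over 5 libraries, the smallest standard error of the 43 members, and -0.05 ± 0.11 over 4.

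The partner kinases of the D cyclins did not pass the test. Cdk4 was at 77.8 and 66.5 CPM in SRF-OE and at 71.4, 85.0 and 73.4 CPM in GFP 1, 2 and 3, with a log2 fold change of -0.09 ± 0.14 over 5 libraries and -0.13 ± 0.14 over 4. Cdk6 had a log2 fold change of -0.33 ± 0.29 over 5 libraries and -0.47 ± 0.28 over 4. Cdk2, the partner of the E and A cyclins, was at 34.1 and 33.5 CPM in SRF-OE and at 32.2, 29.9 and 27.1 CPM in GFP 1, 2 and 3. Its SRF-OE libraries were above all GFP libraries, by a log2 fold change of 0.18 ± 0.13 over 5 libraries and 0.25 ± 0.13 over 4. The E cyclins had log2 fold changes on either side of 0, -0.17 ± 0.26 for Ccne1 and 0.47 ± 0.33 for Ccne2 over 5 libraries, and -0.20 ± 0.29 and 0.68 ± 0.34 over 4. Both SRF-OE libraries were above GFP 2 and 3 for Ccne2, with the library labelled GFP1 between them.

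Among the CDK inhibitors, Cdkn1a had the largest log2 fold change of the 43 members in the 5-library fit. Cdkn1a (GRCm38 chr17:29090976-29100727, plus strand), an inhibitor of CDK complexes and a standard p53 target, was at 137 and 319 CPM in SRF-OE, 119 CPM in the library labelled GFP1, and 53.4 and 50.8 CPM in GFP 2 and 3. The SRF-OE libraries were above all GFP libraries, though SRF-OE 2 lay much nearer to the library labelled GFP1 than to SRF-OE 3. The log2 fold change was 1.62 ± 0.47 (adjusted p = 0.353) over 5 libraries and 2.14 ± 0.38 (adjusted p = 0.0499) over 4, by edgeR's quasi-likelihood test with Benjamini-Hochberg adjustment. The second value lies at the threshold, and 3 of the 5 alternatives on those 4 libraries called the gene, with adjusted p up to 0.0592. Without SRF-OE 3, the log2 fold change of Cdkn1a was 0.88 with the 3 GFP libraries and 1.40 with GFP 2 and 3. Ccnd1, Ccnd2 and Cdkn1a shared the same order of the groups, with the library labelled GFP1 between GFP 2 and 3 and the SRF-OE libraries.

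Cdkn1b, which inhibits Cdk2 and Cdk4 complexes, was at 8.67 and 6.60 CPM in SRF-OE, 5.80 CPM in the library labelled GFP1, and 5.00 and 3.79 CPM in GFP 2 and 3. The groups did not overlap, and the log2 fold change of 0.64 ± 0.27 over 5 libraries and 0.79 ± 0.28 over 4 did not pass the test (adjusted p = 0.359 and 0.140, edgeR's quasi-likelihood test with Benjamini-Hochberg adjustment). Cdkn2c, an inhibitor of Cdk4 and Cdk6, was at 11.8 and 10.1 CPM in SRF-OE and at 9.08, 10.7 and 8.37 CPM in GFP 1, 2 and 3. Its groups overlapped. Rb1, the pocket protein that D cyclin kinases phosphorylate, was at 22.9 and 26.9 CPM in SRF-OE and at 23.4, 22.8 and 17.8 CPM in GFP 1, 2 and 3. E2f1, an activating E2F factor, was at 8.09 and 10.1 CPM in SRF-OE and at 9.03, 8.81 and 7.34 CPM in GFP 1, 2 and 3. Neither Rb1 nor E2f1 separated the 5 libraries by group.

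**Figure D3:**
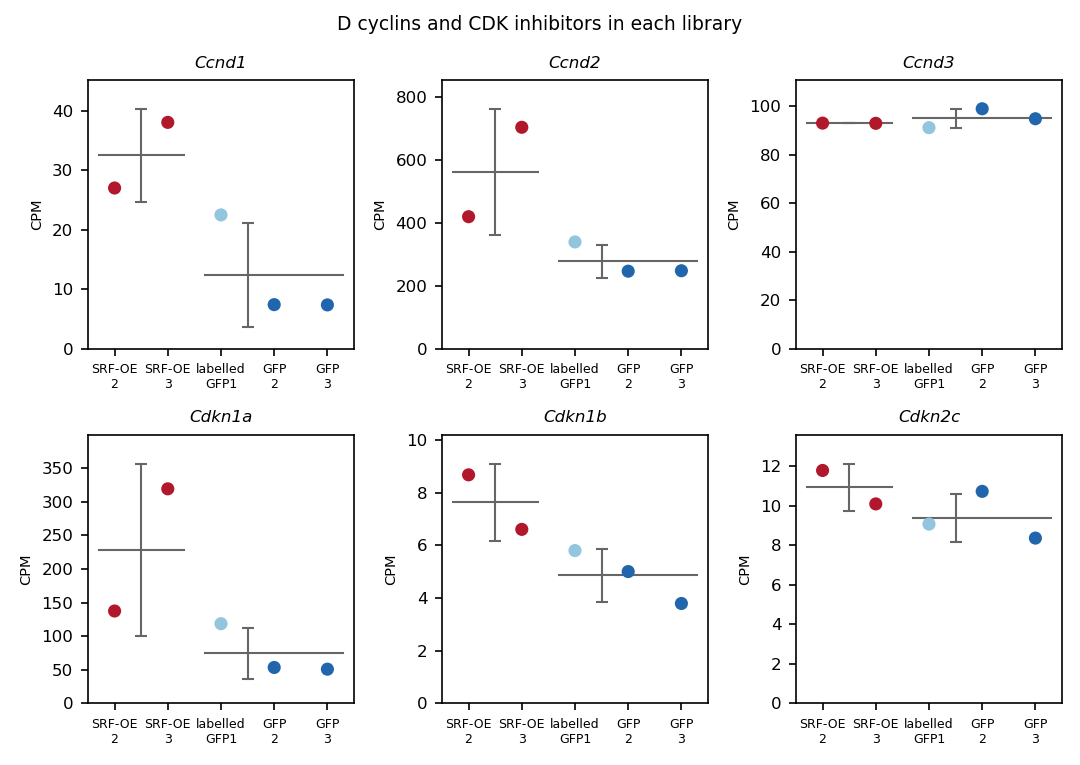
CPM of the 3 D cyclins and the 3 CDK inhibitors in each library, with the mean (line) and SD (bar) of the 2 SRF-OE libraries and of the 3 libraries labelled GFP. For Ccnd1 and Cdkn1a the library labelled GFP1 (light blue) sits near SRF-OE 2 and well above GFP 2 and 3, and Ccnd3 is level across the 5 libraries.

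The promoter window of Cdkn1a is shown because this gene rose in the 4-library fit. It runs from 250 bases before to 50 after the RefSeq start (GRCm38.p6, chr17:29090729-29091028, plus strand), with matches to the decamer motif of p53 in capitals.
Cdkn1a: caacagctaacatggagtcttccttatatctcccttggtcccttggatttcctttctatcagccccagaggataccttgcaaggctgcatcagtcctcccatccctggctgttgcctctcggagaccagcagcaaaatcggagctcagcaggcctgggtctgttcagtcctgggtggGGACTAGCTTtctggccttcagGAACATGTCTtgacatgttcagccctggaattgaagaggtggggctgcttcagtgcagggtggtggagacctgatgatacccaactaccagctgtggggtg
The window held 2 matches to the decamer motif of p53, and 8.36% of the 32851 RefSeq windows of that length held at least 1. The second RefSeq window of Cdkn1a held none of the motifs searched. RefSeq windows were matched for 34 of the 43 members, in 39 windows, and Ccnd1 and Ccnd2 were not among them. A match to the CArG box, the motif that SRF binds, was present in 1 of the 39 windows, that of Tyms, beside 1.63% of all windows.

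Of the 10 replication members, 2 had both SRF-OE libraries above all 3 GFP libraries and 2 had both below. None was called in edgeR's 5-library or 4-library fit without the block and with the filter. The shares of all tested genes were 16.1% and 17.3%, so these counts were near the background. The 4 genes were subunits of the MCM helicase, Mcm6 and Mcm7 above and Mcm2 and Mcm5 below. Mcm6 (GRCm38 chr1:128331590-128359664, minus strand) was at 37.9 and 52.7 CPM in SRF-OE, 37.7 CPM in the library labelled GFP1, and 24.9 and 21.5 CPM in GFP 2 and 3. SRF-OE 2 exceeded the library labelled GFP1 by less than 1 CPM, while GFP 2 and 3 were well below both. Its log2 fold change was 0.69 ± 0.27 over 5 libraries (adjusted p = 0.357) and 0.97 ± 0.20 over 4 (adjusted p = 0.0570), by edgeR's quasi-likelihood test with Benjamini-Hochberg adjustment. Without SRF-OE 3 it was 0.42 with the 3 GFP libraries.

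Mcm2 (GRCm38 chr6:88883474-88898780, minus strand) was at 30.8 and 23.5 CPM in SRF-OE, 33.0 CPM in the library labelled GFP1, and 48.9 and 44.4 CPM in GFP 2 and 3. Both SRF-OE libraries were below every GFP library, and its log2 fold change was -0.64 ± 0.22 over 5 libraries (adjusted p = 0.353) and -0.78 ± 0.17 over 4 (adjusted p = 0.0626, edgeR's quasi-likelihood test with Benjamini-Hochberg adjustment). Mcm5 (GRCm38 chr8:75109569-75128439, plus strand) was at 14.9 and 13.9 CPM in SRF-OE and at 20.2, 21.8 and 19.8 CPM in GFP 1, 2 and 3. For Mcm5 the library labelled GFP1 lay with the other GFP libraries, unlike for Mcm2 and Mcm6, and the log2 fold change was -0.52 ± 0.15 over 5 libraries and -0.53 ± 0.16 over 4 (adjusted p = 0.353 and 0.104, edgeR's quasi-likelihood test with Benjamini-Hochberg adjustment). Neither Mcm2, Mcm5 nor Mcm6 passed the test in either fit. DESeq2 and the edgeR fit without a filter called Mcm2 lower and Mcm6 higher on the 4 libraries, and did not call Mcm5.

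Mcm4 was at 18.8 and 12.1 CPM in SRF-OE and at 19.1, 22.98 and 17.9 CPM in GFP 1, 2 and 3, with a log2 fold change of -0.38 ± 0.23 over 5 libraries and -0.41 ± 0.26 over 4 and with overlapping groups. Mcm3 and Mcm7 had log2 fold changes of -0.15 ± 0.22 and 0.24 ± 0.16 over 5 libraries and -0.10 ± 0.25 and 0.32 ± 0.17 over 4. Pcna, the sliding clamp of DNA polymerase, was at 18.7 and 24.6 CPM in SRF-OE and at 21.1, 21.9 and 17.6 CPM in GFP 1, 2 and 3. Its groups overlapped, with a log2 fold change of 0.10 ± 0.19 over 5 libraries.

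**Figure D4:**
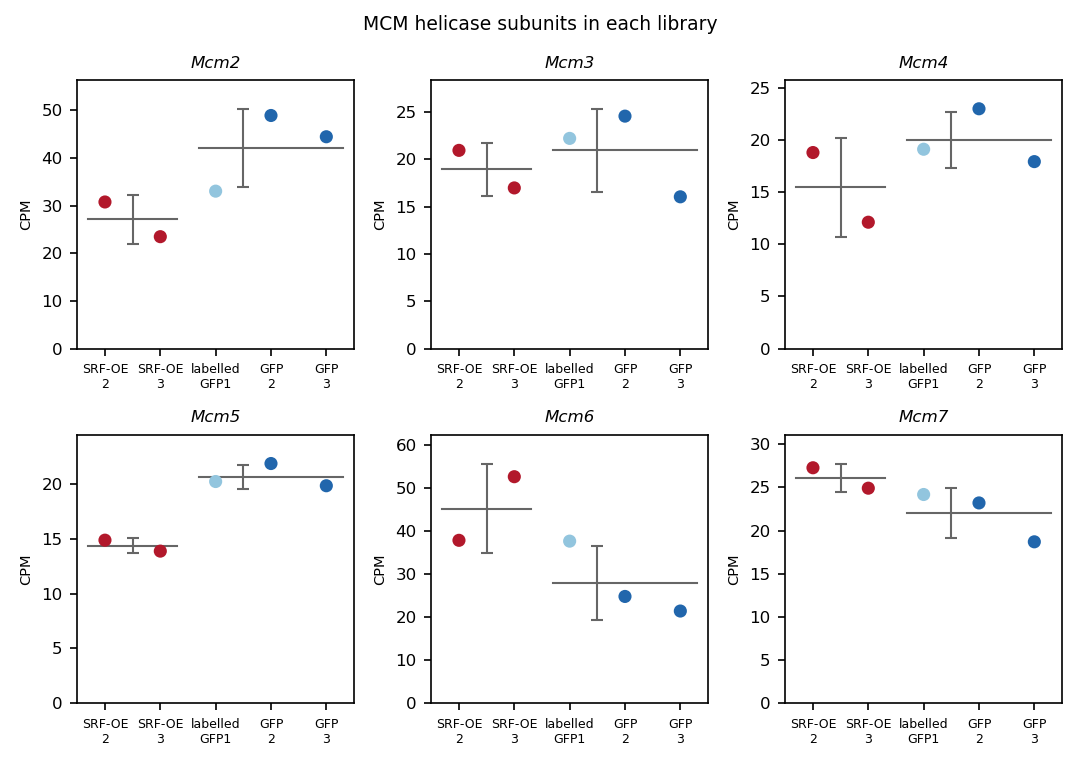
CPM of the 6 MCM helicase subunits in each library, with the mean (line) and SD (bar) of the 2 SRF-OE libraries and of the 3 libraries labelled GFP. Mcm2 and Mcm5 are lowest in the 2 SRF-OE libraries, Mcm6 is highest there, and Mcm3 and Mcm4 overlap between the groups.

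The windows of Mcm6, Mcm2 and Mcm5 are shown as subunits of 1 helicase whose values lay above (Mcm6) and below (Mcm2 and Mcm5) those of the GFP libraries. Capitals mark matches on either strand to the E2F motif (TTTGGCGC, TTTGCCGC, TTTCGCGC or TTTCCCGC), the CHR element (TTTGAA, which occurs in promoters of many G2 and mitosis genes) and the CCAAT box. The windows are at chr1:128359656-128359955 (minus strand), chr6:88898731-88899030 (minus strand) and chr8:75109259-75109558 (plus strand) of GRCm38.p6, each printed in the direction of transcription.
Mcm6: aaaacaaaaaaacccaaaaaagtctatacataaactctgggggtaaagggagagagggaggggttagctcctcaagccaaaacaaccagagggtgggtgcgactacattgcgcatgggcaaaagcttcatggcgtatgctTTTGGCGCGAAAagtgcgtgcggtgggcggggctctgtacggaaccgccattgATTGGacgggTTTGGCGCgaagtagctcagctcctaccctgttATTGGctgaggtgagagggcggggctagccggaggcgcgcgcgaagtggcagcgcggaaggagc
Mcm2: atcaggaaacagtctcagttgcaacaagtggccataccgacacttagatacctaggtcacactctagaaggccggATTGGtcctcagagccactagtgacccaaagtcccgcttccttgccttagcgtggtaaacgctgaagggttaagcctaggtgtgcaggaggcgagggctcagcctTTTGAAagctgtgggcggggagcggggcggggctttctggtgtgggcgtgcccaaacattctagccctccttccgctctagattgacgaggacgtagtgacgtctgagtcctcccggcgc
Mcm5: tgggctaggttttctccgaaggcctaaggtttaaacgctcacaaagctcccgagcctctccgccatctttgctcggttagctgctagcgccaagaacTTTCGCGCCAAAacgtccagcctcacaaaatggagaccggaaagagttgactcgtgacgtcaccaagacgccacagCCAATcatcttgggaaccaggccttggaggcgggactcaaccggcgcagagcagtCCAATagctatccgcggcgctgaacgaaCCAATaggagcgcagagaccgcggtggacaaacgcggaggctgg
Mcm6 held 3 matches to the E2F motif, of which 2 overlapped on opposite strands, and Mcm5 held 2 that overlapped. Mcm2 held no E2F match in this window. A link between motif matches and the values of these genes was not tested. Of the 10 windows of replication members, 4 held an E2F match, beside 2.26% of all windows.

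The nucleotide supply genes were within the spread of the libraries. Rrm1, the large subunit of ribonucleotide reductase, was at 47.3 and 45.4 CPM in SRF-OE and at 43.3, 61.6 and 47.0 CPM in GFP 1, 2 and 3. Rrm2, its small subunit, was at 35.8 and 44.8 CPM in SRF-OE and at 31.7, 56.7 and 32.1 CPM in GFP 1, 2 and 3. Both were highest in GFP 2. Tyms, which makes thymidylate, was at 5.55 and 3.50 CPM in SRF-OE and at 4.32, 4.08 and 3.63 CPM in GFP 1, 2 and 3. Over the 10 replication members (MCM subunits, Pcna, Rrm1, Rrm2 and Tyms), 5 log2 fold changes were above 0 and 5 below, with a median of -0.06, and over 4 libraries 4 were above 0, with a median of -0.12.

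The 20 members that act in G2 and mitosis all had a log2 fold change above 0 in the 5-library fit, with a median of 0.41, and none passed an adjusted p of 0.05. These are Mki67, Top2a, Cdk1, the A and B cyclins, 8 kinases and checkpoint genes, and 6 genes of the spindle, kinetochore and cytokinesis. Without the library labelled GFP1, all 20 stayed above 0, with a median of 0.42. The value turned on GFP 3: without that library the median over the remaining 4 libraries was 0.20, and without both GFP 3 and the library labelled GFP1 it was 0.03, with 11 of 20 above 0. GFP 3 had the lowest CPM for 18 of the 20, and SRF-OE 2 the highest for 17.

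For these genes the libraries of 1 group also differed. On the log2(CPM + 0.5) scale, GFP 2 was above GFP 3 for 20 of 20 members, with a median difference of 0.74, and SRF-OE 2 was above SRF-OE 3 for 18 of 20, with a median difference of 0.32. Between the groups, SRF-OE 2 was above GFP 2, the pair of libraries with Xist, by a median of 0.20, and SRF-OE 3 was above GFP 3 by a median of 0.73. The library labelled GFP1 was below GFP 2 for 19 of 20, with a median difference of -0.34.

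**Figure D5:**
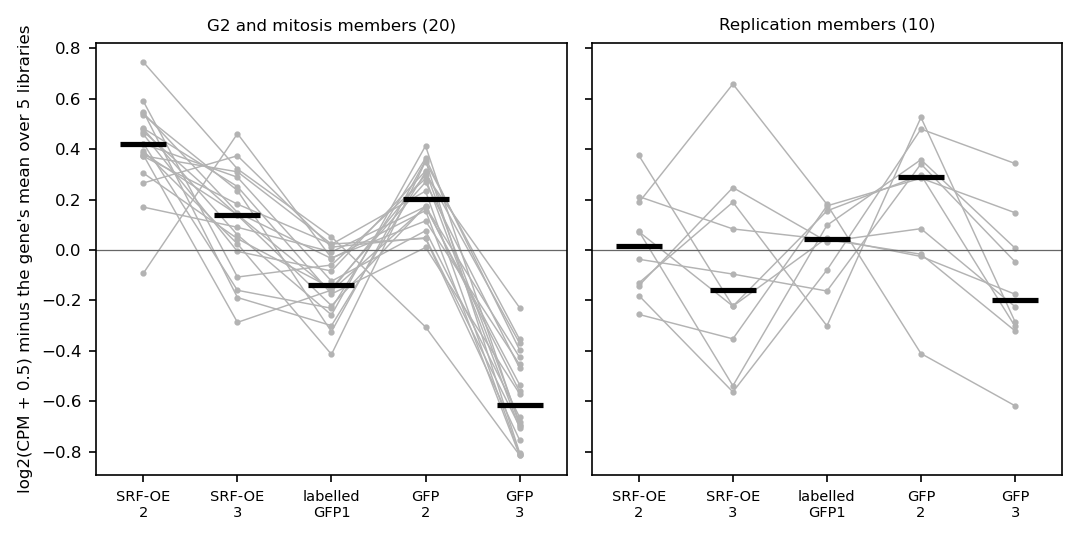
Log2(CPM + 0.5) of each G2 and mitosis member (left) and each replication member (right) in each library, minus that gene's mean over the 5 libraries; grey lines join the values of 1 gene and carry no order, and black bars are medians. On the left SRF-OE 2 and GFP 2 have higher medians than the other library or libraries of their group and GFP 3 is lowest; the right side shows no common order of the groups.

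The summed levels of markers of other cell types differed between the libraries. The summed level of 10 endothelial markers was 826 CPM in SRF-OE 2, 647 CPM in the library labelled GFP1 and between 330 and 354 CPM in the other 3. All 10 had a log2 fold change above 0, with a median of 0.40 over 5 libraries and 0.76 over 4. Neither edgeR nor DESeq2 called any of them. The summed level of 10 fibroblast markers was 933 CPM in SRF-OE 2 and 465 CPM in SRF-OE 3, and from 338 to 504 CPM in the 3 GFP libraries. All 10 fibroblast markers had a log2 fold change above 0, with Ddr2 called higher by edgeR over 4 libraries. DESeq2 called 6 of them higher over 4 libraries and none over 5. The summed level of 9 leukocyte markers was 34.8 CPM in SRF-OE 2, 25.0 CPM in the library labelled GFP1 and between 12.1 and 13.6 CPM in the other 3. The 8 markers of smooth muscle and pericytes summed to between 527 and 695 CPM in the 5 libraries. Of these, 7 had a log2 fold change above 0, with a median of 0.56 over the 8, and Tagln was called higher by edgeR over 4 libraries. DESeq2 called 4 of the 8 higher over 4 libraries and none over 5. The erythroid markers summed to 6.65 and 5.33 CPM in SRF-OE and to between 0.523 and 3.47 CPM in the 3 GFP libraries. All 10 CM markers had a log2 fold change below 0. None was called by edgeR over 5 or 4 libraries, and DESeq2 called 2 lower over 5 and 5 lower over 4. Every endothelial, fibroblast and leukocyte marker was detected. SRF-OE 2 had the highest sum of each of these 3 lists and the highest CPM for 17 of the 20 G2 and mitosis members. The library labelled GFP1 had the next highest sum of each of the 3 lists, but was above GFP 2 for only 1 of the 20. The part of other cell types in the level of the mitotic members was not tested.

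Of the proliferation markers, Mki67, whose protein coats mitotic chromosomes, was at 30.9 and 18.3 CPM in SRF-OE and at 16.9, 26.1 and 16.1 CPM in GFP 1, 2 and 3. Its groups overlapped, with SRF-OE 2 and GFP 2 the highest, and the log2 fold change was 0.32 ± 0.30 over 5 libraries and 0.22 ± 0.33 over 4. Top2a, the topoisomerase that untangles sister chromatids, was at 31.4 and 30.1 CPM in SRF-OE and at 24.6, 25.0 and 14.1 CPM in GFP 1, 2 and 3. Both SRF-OE libraries were above all GFP libraries, and the log2 fold change of 0.53 ± 0.26 over 5 libraries and 0.65 ± 0.27 over 4 did not pass the test (adjusted p = 0.388 and 0.183, edgeR's quasi-likelihood test with Benjamini-Hochberg adjustment). Of the 5 alternatives on those 4 libraries, 1 called Top2a higher, the edgeR fit without a filter. Cdk1, the kinase that starts mitosis, had a log2 fold change of 0.50 ± 0.25 over 5 libraries and 0.61 ± 0.27 over 4.

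The A and B cyclins overlapped between the groups. Ccna2, the cyclin of S phase and G2, was at 26.8 and 17.7 CPM in SRF-OE and at 16.9, 25.7 and 14.998 CPM in GFP 1, 2 and 3. Ccnb2, a partner of Cdk1, was at 15.3 and 9.22 CPM in SRF-OE and at 9.55, 12.2 and 5.92 CPM in GFP 1, 2 and 3. In both, SRF-OE 2 and GFP 2 were the 2 highest libraries. Ccnb1 had a log2 fold change of 0.40 ± 0.35 over 5 libraries and 0.32 ± 0.39 over 4.

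The 8 mitotic kinases and checkpoint genes had log2 fold changes from 0.09 for Mad2l1, a spindle checkpoint protein, to 0.62 for Aurkb, the kinase of the chromosomal passenger complex, and from 0.02 to 0.53 for the same genes over 4 libraries, and the groups overlapped for all 8. Cdc20, which activates the anaphase-promoting complex, was at 24.4 and 19.3 CPM in SRF-OE and at 14.9, 19.8 and 11.7 CPM in GFP 1, 2 and 3. Aurka, a kinase of the spindle poles, was at 11.1 and 16.5 CPM in SRF-OE and at 11.6, 12.9 and 8.53 CPM in GFP 1, 2 and 3, and was the 1 gene of the 8 that was higher in SRF-OE 3 than in SRF-OE 2. The remaining Plk1, Bub1, Bub1b and Birc5 had log2 fold changes from 0.20 to 0.43 over 5 libraries and from 0.18 to 0.49 over 4.

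The 6 genes of the spindle, kinetochore and cytokinesis had log2 fold changes from 0.27 to 0.91 over 5 libraries, with a median of 0.56, and a median of 0.62 over 4. Cenpe (GRCm38 chr3:135212537-135273611, plus strand), a kinesin that moves chromosomes at the kinetochore, was at 12.6 and 9.27 CPM in SRF-OE, 7.60 CPM in the library labelled GFP1, and 5.83 and 3.95 CPM in GFP 2 and 3. The groups did not overlap, and the log2 fold change was 0.91 ± 0.31 over 5 libraries and 1.15 ± 0.30 over 4 (adjusted p = 0.353 and 0.0765, edgeR's quasi-likelihood test with Benjamini-Hochberg adjustment). Of the 5 alternatives on those 4 libraries, 2 called Cenpe higher, DESeq2 and the edgeR fit without a filter. Kif11, the kinesin that pushes spindle poles apart, was at 14.5 and 12.2 CPM in SRF-OE and at 8.98, 10.3 and 6.71 CPM in GFP 1, 2 and 3. Its groups did not overlap either, and the log2 fold change was 0.62 ± 0.23 over 5 libraries and 0.65 ± 0.26 over 4, with an unadjusted p from edgeR of 0.0351 and 0.0510.

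Prc1, which bundles the microtubules of the central spindle, was at 35.0 and 31.9 CPM in SRF-OE and at 23.9, 27.5 and 16.3 CPM in GFP 1, 2 and 3, with a log2 fold change of 0.57 ± 0.23 over 5 libraries and 0.61 ± 0.26 over 4. Prc1 was called higher by 1 of the 5 alternatives on those 4 libraries, the edgeR fit without a filter. It shares 21.8% of its exonic bases with the opposite-strand gene Rccd1. Kif20a, a kinesin of cytokinesis, was at 22.03 and 15.8 CPM in SRF-OE and at 14.97, 19.9 and 9.71 CPM in GFP 1, 2 and 3. Its groups overlapped, and 31.8% of its exonic bases are shared with Cdc23. Anln and Tpx2, which act in the cleavage furrow and in spindle assembly, had log2 fold changes of 0.27 ± 0.25 and 0.55 ± 0.32 over 5 libraries and 0.24 ± 0.28 and 0.62 ± 0.36 over 4.

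The windows of Top2a and Cenpe are shown as 2 mitotic members whose groups did not overlap and whose promoter letters differed. They lie at chr11:99024140-99024439 (minus strand) and chr3:135212313-135212612 (plus strand) of GRCm38.p6, with matches to the motifs above in capitals.
Top2a: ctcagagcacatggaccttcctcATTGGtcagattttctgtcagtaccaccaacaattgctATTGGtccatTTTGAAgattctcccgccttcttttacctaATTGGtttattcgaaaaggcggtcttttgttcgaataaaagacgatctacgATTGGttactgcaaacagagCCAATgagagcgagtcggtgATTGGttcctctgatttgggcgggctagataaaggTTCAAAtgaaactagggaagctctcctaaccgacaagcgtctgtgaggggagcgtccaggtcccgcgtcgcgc
Cenpe: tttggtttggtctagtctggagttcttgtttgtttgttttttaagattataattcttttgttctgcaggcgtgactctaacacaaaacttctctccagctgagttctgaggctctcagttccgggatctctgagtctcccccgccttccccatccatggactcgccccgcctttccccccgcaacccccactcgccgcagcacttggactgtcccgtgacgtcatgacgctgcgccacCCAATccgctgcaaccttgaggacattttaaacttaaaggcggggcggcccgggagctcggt
Top2a held 2 CHR matches and 6 CCAAT matches, and Cenpe held 1 CCAAT match and no CHR match. Of the 17 windows of G2 and mitosis members, 12 held a CHR match and 14 a CCAAT match, beside 17.9% and 37.4% of all windows. Among replication members, 1 of 10 windows, that of Mcm2, held a CHR match.

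A wider set of 173 genes in 5 lists, of which 172 were tested, was read from the same fits. None passed an adjusted p of 0.05 over 5 libraries by edgeR's quasi-likelihood test, DESeq2 called none either, and 14 were higher and 6 lower at an unadjusted p under 0.05 by edgeR, beside 6.35% and 7.59% of all tested genes. Over 4 libraries, edgeR's quasi-likelihood test with Benjamini-Hochberg adjustment called 4 higher and 1 lower, with adjusted p from 0.0423 to 0.0499. The shares of all tested genes were 1.98% and 0.97%. DESeq2 over 4 libraries called 13 of the 173 higher and 5 lower, beside 853 higher and 833 lower of 21407 genes. Of 65 further mitosis genes, 59 had a log2 fold change above 0 over 5 libraries, with a median of 0.37, and Psrc1, a microtubule-binding p53 target, rose over 4 libraries. Psrc1 was at 3.58 and 4.77 CPM in SRF-OE, 1.95 CPM in the library labelled GFP1, and 0.872 and 0.395 CPM in GFP 2 and 3. Of 46 further replication genes, 27 had a log2 fold change above 0, with a median of 0.03, and edgeR called none in either fit, while DESeq2 over 4 libraries called Rpa1 and Dut lower. Over 4 libraries the medians were 0.39 for the mitosis list and 0.04 for the replication list.

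Of 30 further genes of G1 and S phase control, Pkmyt1, a kinase that inhibits Cdk1, rose over 4 libraries, by a log2 fold change of 1.63 ± 0.27 (adjusted p = 0.0484, edgeR's quasi-likelihood test with Benjamini-Hochberg adjustment). Of 11 further CDK inhibitors and related genes tested, Cdkn1c rose over 4 libraries. Cdkn1c was at 13.4 and 17.1 CPM in SRF-OE, 17.4 CPM in the library labelled GFP1, and 4.22 and 3.55 CPM in GFP 2 and 3, so the library labelled GFP1 was the highest of the 5. Its log2 fold change was 0.85 ± 0.66 over 5 libraries and 1.97 ± 0.24 over 4 (adjusted p = 0.556 and 0.0423, edgeR's quasi-likelihood test with Benjamini-Hochberg adjustment).

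The p53 target list, to which Cdkn1a also belongs by function, did not share 1 direction. Of 21 genes tested besides Cdkn1a, 13 had a log2 fold change above 0 over 5 libraries and 8 below. The median was 0.23 over 5 libraries and 0.47 over 4, against 0.03 and 0.04 over all tested genes. DESeq2 over 4 libraries called 5 of the 21 higher and 2 lower, beside 853 higher and 833 lower of 21407 genes. By edgeR, 1 gene was called in each direction over 4 libraries. Over 4 libraries, Plk2, a Polo-like kinase, rose by a log2 fold change of 1.05 ± 0.15, and Sesn1, a stress-induced regulator of growth signalling, fell by 0.78 on the log2 scale. Plk2 was at 67.6 and 83.4 CPM in SRF-OE, 74.9 CPM in the library labelled GFP1, and 37.3 and 36.2 CPM in GFP 2 and 3. Sesn1 was at 80.9 and 67.0 CPM in SRF-OE, 87.0 CPM in the library labelled GFP1, and 130 and 125 CPM in GFP 2 and 3. For both, the library labelled GFP1 lay nearer to the SRF-OE libraries than to GFP 2 and 3.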

How the data were processed

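The submitters' processing notes name CASAVA 1.8, STAR 2.5.3a and featureCounts of Subread 1.5.2 with mm10, and the authors deposited raw counts per gene without normalization, with gene symbols in the first column. Libraries came from sorted CMs by SMART-Seq v4 and Nextera XT, which do not mark strand, and no molecular identifiers are described, so reads are not independent molecules. The column headed OE1 holds a gene length for all 23337 genes (above 0 in each), of which 52.3% of 20892 compared genes lay within 5% of the exon length in GENCODE vM21 basic. It was used for RPKM. Counts were scaled by TMM over the 5 libraries for CPM, filtered with filterByExpr and tested with edgeR 4.0.16 (quasi-likelihood, Benjamini-Hochberg over all genes tested), with a standard error equal to the log2 fold change divided by the square root of F. DESeq2 1.42.0 was an alternative, and the fits were tested on simulated counts, on which the block fit made a larger share of false calls than the fit without it. The simulated counts held a group effect but no replicate effect, so they cannot judge the block where a replicate effect is present. Residual degrees of freedom without the block were 3 with 5 libraries and 2 with 4, and the block left fewer. Groups followed the labels, but the library labelled GFP1 was left out of the 4-library fit because of its Srf level in earlier results of these data. The sources do not say that the replicates were separate animals, so p-values measure the spread between these libraries. The members and lists were chosen with earlier results of these data known, as was the weight given to the fit without the library labelled GFP1. Values are given for each library for the 2 highest members of each role by mean RPKM (all in roles of up to 3), for members called in any fit, for those with non-overlapping groups and an unadjusted p under 0.05, and for the 3 largest log2 fold changes each way; other genes are named where called, or to complete a role. Promoter windows were RefSeq's. Listed symbols absent from the table were matched through RefSeq synonyms.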

Additional observations from a re-analysis of the deposited data

How the results depend on the processing

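Over 5 libraries, no gene passed the threshold under other scaling or filters, except that DESeq2 called 11 genes higher and 213 lower, with 1 member higher. Leaving out 1 library gave from 0 to 265 genes higher, 0 to 130 lower, 0 to 2 members higher and 0 lower, with calls only without the library labelled GFP1. The median log2 fold change ranged from 0.14 to 0.48 over all members, from 0.20 to 0.64 over G2 and mitosis members and from -0.18 to 0.10 over replication members, the last of these turning positive without GFP 2. That of Srf ranged from 1.13 to 2.87 and passed the threshold without the library labelled GFP1. That library was left out because of its Srf level, so this pass follows in part from the choice and is no independent check.

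Over 4 libraries, genes called higher and lower numbered 853 and 833 with DESeq2, 88 and 9 under upper quartile scaling, 1660 and 1303 without a filter, 55 and 9 where 10 counts were required of each library, and 206 were lower with DESeq2 size factors. Members called higher numbered 5 with DESeq2, 7 without a filter, and 1 each (Ccnd1) under upper quartile scaling and with at least 10 counts, and 1 (Mcm2) was lower with DESeq2 and without a filter. Srf had a log2 fold change of 2.89 with at least 10 counts and missed the threshold. Leaving out 1 further library gave from 0 to 1640 genes higher, 0 to 1638 lower, 0 to 5 members higher and 0 to 2 lower, with no member called without GFP 2 or GFP 3. A lone library of a group was assumed to vary like those of the other. Medians then ranged from 0.028 to 0.59 over all members, 0.032 to 0.96 over G2 and mitosis members and -0.40 to 0.26 over replication members, and Srf from 2.24 to 3.30. The cause was not tested.

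Replicate numbers were shared between groups, but nothing ties them to a litter or day. They also rest on the column headers, and whether those are shifted was not tested. Both libraries numbered 2 had Xist, at 147 and 88.8 CPM, and both numbered 3 had 0.743 CPM or less, so the block also separates these libraries by sex. Same-numbered libraries had deviations correlated at 0.372 for number 2 and -0.06 for number 3 over 5 libraries. Over 4 libraries the value was 0.215 for both numbers, which must be equal with 2 libraries per group. With the replicate block, 582 genes were higher and 432 lower over 5 libraries, and 547 and 392 over 4. The block called 5 members higher (Ccnd1, Ccnd2, Cenpe, Mcm6 and Cdkn1a) and 1 lower (Mcm2) with either set of libraries, and Srf had a log2 fold change of 2.78. The library labelled GFP1 is the only library with its number, so the block leaves it no weight in the group comparison. Near-equal results with either set therefore follow from the design and do not show that the calls hold with that library kept. In the wider lists the block also called Bax and Phlda3.

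Some members that were not called changed sign. Rrm2 turned to -0.0990 with the block, -0.00487 with DESeq2 and -0.00391 without a filter, and Ccnd3 to 0.0170 under upper quartile scaling. Leaving out 1 of 5 libraries moved Mki67 between -0.11 and 0.64, Cdk4 between -0.20 and 0.0125, Ccna2 between -0.12 and 0.48, Ccnb2 between -0.0122 and 0.71, Ccnd3 between -0.0538 and 0.00028, Aurka between -0.0013 and 0.58, Mad2l1 between -0.30 and 0.39, Pcna between -0.13 and 0.28, Rrm1 between -0.22 and 0.0386, Rrm2 between -0.18 and 0.34, Tyms between -0.20 and 0.45 and E2f1 between -0.0644 and 0.26. Leaving out 1 of the 4 libraries gave values on both sides of 0 for 14 members, Mki67, Ccna2, Ccnb1, Ccnb2, Bub1, Bub1b, Mad2l1, Kif20a, Anln, Mcm3, Pcna, Rrm2, Tyms and E2f1.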
